A study of Drosophila melanogaster with 4 samples.

Results

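On arrays of Drosophila melanogaster embryos, 45 of 13927 genes, or 0.323%, gave spots well above background in embryos without the 8-miR cluster and in no extract of w1118 embryos. These genes were chosen by measured values: a gene needed at least 1 probe whose spots the scanner software flagged as well above background in the null channel of all 4 arrays, and no probe so flagged in any of the 4 w1118 channels. A share of 0.5 or more of the spots of a probe had to carry the flag. Genes were counted by the annotation ID (CG number) on the array, and 2 genes of the odorant, gustatory and ionotropic receptor families that also met the flags were left out. The mirrored rule, well above background in w1118 on 4 arrays and in the null on none, gave 38 genes, or 0.273%. Of the 45 genes, 43 were named through RefSeq's gene table (Release 6), and CG17925 and CG15234 keep the array's ID.

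MicroRNAs are short RNAs that guide Argonaute proteins to messenger RNAs with matching sites, which leads to less translation and faster decay of those messengers. In Drosophila, the 8-miR cluster is the name used for the miR-309 cluster, which the early zygotic genome transcribes and which is known for helping to clear messenger RNAs that the mother left in the egg. A loss of microRNAs can raise the level of their direct targets, and through these it can raise or lower other genes. An array cannot separate the direct from the indirect, and fewer cells of a type cannot be told apart from less RNA per cell in whole embryos.

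Each array held total RNA of embryos labelled as null in one dye and of w1118 embryos, the wild type here, in the other, and both had the w1118 genetic background. Eggs were laid for 2 h and the embryos kept for a further 6 h at 25 °C, which gave a stage of 6 to 8 h. There were 3 independently isolated replicates of each genotype, with Cy3 on the null and Cy5 on w1118, and the fourth array held replicate 1 with the dyes exchanged. Titles and source names give an 8-miR cluster null, but the genotype field gives a miR-8 cluster null and the treatment text an ectopically expressed mir-3. The genotype is therefore taken from the titles, against other fields of the labels. No probe of the microRNAs was matched here, so the deletion itself was not checked.

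Of 10 regulators of the mesoderm (among them Mef2, twi and tin), 10 were well above background in both genotypes on all 4 arrays. In each genotype this also held for 14 of 20 genes of the larval and adult gut and fat body. It held for 4 of 15 genes of the adult eye and antenna, so these lists do not settle the stage. None of 13 marker lists for tissues held any of the 45 genes. In the limma fit of all 10012 genes, 28.0% were higher and 26.5% lower in the null at an adjusted p under 0.05. Some lists had more higher than lower genes. Of the 10 mesoderm regulators 4 were higher and 2 lower, and of 15 gut and fat body genes tested 7 were higher and 5 lower. Several lists had more lower than higher genes. Of 11 muscle structure genes 3 were higher and 7 lower, with a median log2 ratio of -0.43, and of 8 late embryonic cuticle genes 2 were higher and 5 lower, with a median of -0.27. Of 10 follicle cell and yolk genes tested, 1 was higher and 6 were lower, with a median of -0.50, and the summed net signal of the 13 genes was 593 to 954 in the null and 1710 to 2596 in w1118. Of 27 testis genes, 2 were well above background on 4 arrays in the null, 2 in w1118, and 16 nowhere. Of 8 testis genes tested 3 were higher and 2 lower, close to the shares of all genes. Of 18 male accessory gland genes 2 were above background on 4 arrays in the null and 2 in w1118. Of 3 tested, 2 were higher and 1 lower. Summed signals of this list were 512 to 610 in the null and 435 to 524 in w1118. The part of these tissues in the values below was not tested.

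The phrase "only in the null" holds for that flag alone. A weaker flag of the same software, a positive signal significantly over the local background, was set in w1118 on at least 1 array for 41 of the 45 genes, and on all 4 arrays for 9. The 4 genes without it in any w1118 channel were beat-Vb, CG17294, CG32437 and Ugt37A3. With this weaker flag in place of the first, the rule gave 17 genes, and these 4 were the only ones shared. The limit of the stronger flag also differed between channels. Among spots with a net signal (median spot brightness minus median local background, arbitrary units) of 20 to 30, 74.2% of the null and 53.4% of the w1118 spots of replicate 1 were flagged. On the dye swap these were 90.8% and 87.6%, in replicate 2 18.4% and 1.71%, and in replicate 3 99.8% and 47.0%. On each array the null channel thus passed a larger share of spots in this range than the w1118 channel. An equal net signal need not be equally dim in both dyes: the replicate 1 medians were 65.5 in the null and 104.5 in w1118. Of all probes, 60.9% in the null and 62.6% in w1118 were flagged in replicate 1, and 64.0% and 63.7% on the dye swap. These shares were 55.8% and 54.5% in replicate 2, and 62.7% and 58.7% in replicate 3.

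The genes gave dim to moderate spots. Mean net signals over the 3 replicates ran from 23.1 to 550 in the null, with a median of 50, and from 2.92 to 24.0 in w1118, with a median of 11. In the null 11 genes had a mean above 100 and 8 had a mean under 30, within the range where the flag differed between channels. Normalised log2 signals of the 4 null channels lay above all 4 w1118 signals for 43 genes, and the ratio was above 0 on all 4 arrays for 43. Of all 10012 genes measured, 19.9% had such signals without overlap and 30.8% had a ratio above 0 on all 4 arrays, but the choice of the 45 genes largely fixed their direction, so nothing is read from the difference.

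**Figure D1:**
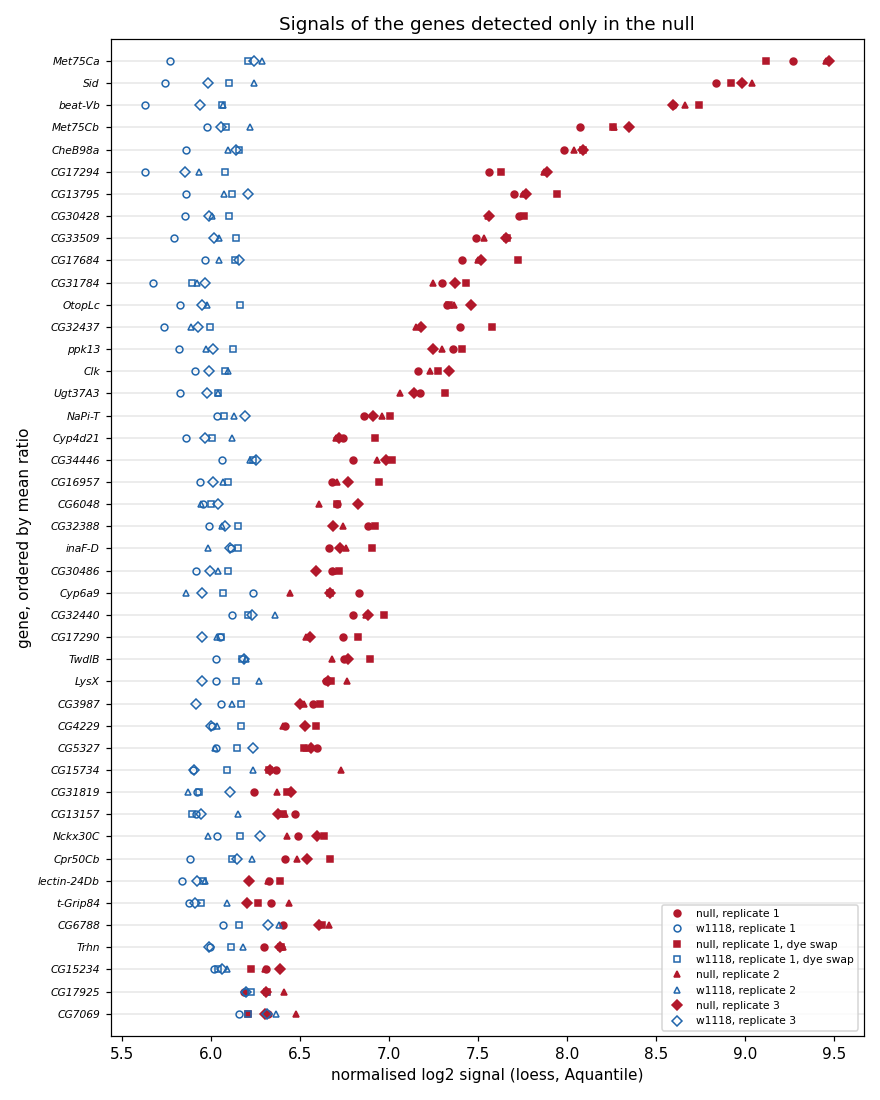
Normalised log2 signals (x axis, after loess and Aquantile) of 44 of the genes (y axis, ordered by mean ratio), with filled red symbols for the 4 null channels and open blue symbols for the 4 w1118 channels, 1 symbol shape per array. Null and w1118 symbols are apart for all genes shown but CG17925 and CG7069 at the bottom, and the w1118 symbols lie in one narrow band.

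Log2 ratios of null over w1118 (normexp background correction with an offset of 50, loess) had a median of 0.71 over the 45 genes and ran from 0.06 to 3.20, while the median of all genes was 0.01. The offset pulls the ratios of dim spots towards 0. The median was 1.81 with an offset of 0 and 3.02 from the scanner's processed signals, so the sizes below are tied to the offset. At the offset of 50, 16 genes were at least 2-fold higher in the null and 4 were at least 4-fold higher, and 15 were less than 1.5-fold higher. Of all genes 1.89% were at least 2-fold higher, and as before nothing is read from that. The median of the 45 ratios was 0.74 on the first array, 0.77 on its dye swap, 0.65 in replicate 2 and 0.71 in replicate 3. Both arrays of replicate 1 were on 1 slide, with a median of 0.73, and the other 2 arrays on another, with 0.65. The SD of a gene over the 3 replicates had a median of 0.088 and was 0.24 at most. Since w1118 was never well above background for these genes, a floored fold is also given. It is taken against the lowest signal of probes that were well above background or the gene's own w1118 signal, whichever was higher. That lowest signal is not a detection limit, so the floored fold is no lower limit of the true fold. In replicate 2, w1118 spots were flagged from a net signal of about 26.5, and others went unflagged up to about 42.5. Floored folds are for the mean of the 3 replicates, and a single replicate can lie below them. Among genes whose floored fold is printed below, it equals the fold of the mean ratio for Met75Cb, CG17684 and CG15234. This also held for others of the set, such as NaPi-T and TwdlB. Replicate 2 of Met75Cb, at a log2 ratio of 2.04 against a mean of 2.16, lay below its floored fold. Floored folds carry no interval and are open to dye bias, because replicates 2 and 3 were labelled in 1 orientation only.

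**Figure D2:**
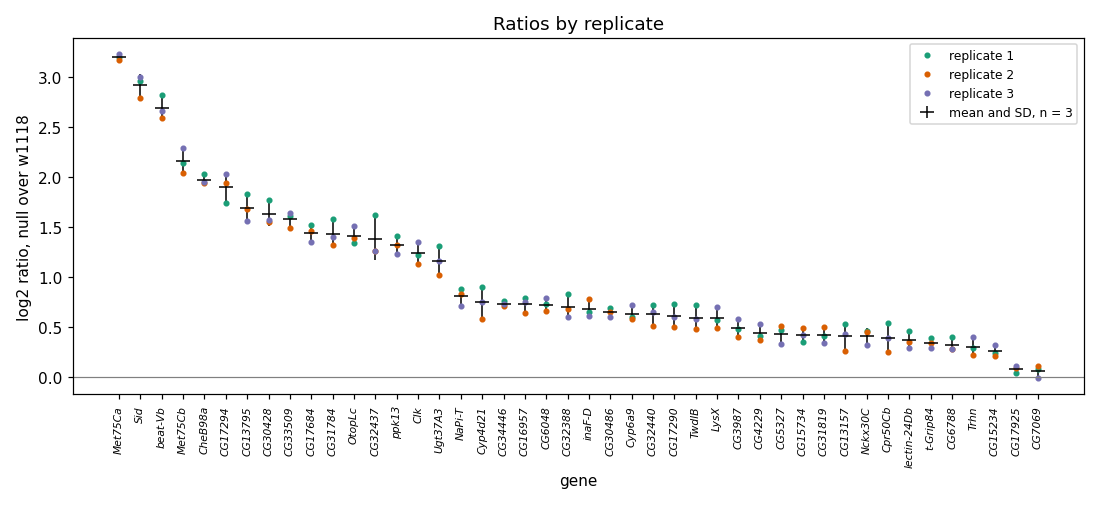
Log2 ratio of null over w1118 (y axis) for 44 of the genes (x axis), with coloured points for the 3 replicates (the 2 arrays of replicate 1 averaged) and black bars for the mean and SD, n = 3. Means fall from 3.20 for Met75Ca to 0.06 for CG7069, with a gap between Ugt37A3 at 1.17 and NaPi-T at 0.81.

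At the offset of 50 the highest ratio belonged to Met75Ca (CG32197, arm 3L). The order of the first 3 genes depends on the processing: with an offset of 0, beat-Vb had 4.87, Sid 4.86 and Met75Ca 4.81, and from processed signals Sid had 6.73, Met75Ca 6.63 and beat-Vb 6.60. Its net signals were 511, 651.5, 535.5 and 534 in the null and 13, 17.5, 17 and 16 in w1118, in the order replicate 1, dye swap, replicate 2 and replicate 3, which is kept below. All null channels were bright and all w1118 channels dim, with no overlap. The log2 ratio was 3.20 ± 0.03 (SD, n = 3), with a floored fold of 9.04. Met75Cb (CG18064) lies directly beside it in gene order, with no gene between. It had 196.5, 315.25, 212.25 and 224 in the null and 21, 12.5, 16 and 7.75 in w1118. The ratio of Met75Cb was 2.16 ± 0.13, with a floored fold of 4.46. Both genes were thus high in the null and dim in w1118 on every array. By their names they may be near copies, and whether a probe reads both was not checked.

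Sid (CG9989, arm 3R), a DNase named for its induction by stress, had net signals of 370, 561, 390.25 and 371.5 in the null and 10.25, 13, 15.25 and 4 in w1118. The groups did not overlap, and the dye swap was the highest of the null channels. The ratio was 2.92 ± 0.11, with a floored fold of 7.36. A second probe of Sid also met the flags, with a ratio of 1.09 ± 0.29. Both probes of the gene were thus higher in the null, by different amounts.

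Several of the genes belong to families known from neurons and sense organs. beat-Vb (CG31298, arm 3R) is an immunoglobulin-domain protein of the beaten path family, whose founding member acts in motor axon guidance. Its net signals were 302.75, 478.25, 294.5 and 276.75 in the null and 3.75, 11.5, 7.5 and 2.25 in w1118. The lowest null channel was far above the highest w1118 channel. Its ratio was 2.69 ± 0.12, with a floored fold of 6.14, and its second probe, which also met the flags, gave 0.90 ± 0.07. CheB98a (CG14531, arm 3R) belongs to the CheB family, known from chemosensory organs. It had 182, 273, 176 and 180 in the null and 13.5, 16, 10 and 12 in w1118, without overlap. The ratio of CheB98a was 1.97 ± 0.05, with a floored fold of 3.90.

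Genes tied to channels and ion exchange, and a clock gene, were also among them. OtopLc (CG15776, arm X), an otopetrin-like gene of the proton channel family, had net signals of 98, 129, 95.5 and 102 in the null and 8.5, 16.5, 6 and 4 in w1118, without overlap. Its ratio was 1.41 ± 0.09, with a floored fold of 2.59. ppk13 (CG33508, arm 2L), a pickpocket gene of the DEG/ENaC sodium channels, had a ratio of 1.32 ± 0.09. inaF-D (CG2457, arm X), of the inaF family that is known from phototransduction channels, had 4 probes: 2 met the flags, with ratios of 0.68 ± 0.09 and 0.43 ± 0.05. Of its others, one was above background in the null on 3 arrays and gave 0.43 ± 0.08, and one that was not above background gave 0.04 ± 0.03. Nckx30C (CG18660, arm 2L), a potassium-dependent sodium/calcium exchanger, had 0.41 ± 0.08 on a probe for transcript RC. Its other probe, for transcript RA, was not above background and gave -0.07 ± 0.06. Clk (CG7391, arm 3L), the bHLH-PAS factor that activates the circadian clock genes, had 1.24 ± 0.11.

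Trhn (CG9122, arm 3L), the neuronal tryptophan hydroxylase of serotonin synthesis, was among the lowest. Its net signals were 23.75, 31.25, 27.25 and 25.5 in the null and 10, 16, 19 and 7.5 in w1118. The groups did not overlap, but the lowest null channel was only slightly brighter than the highest w1118 channel. Its ratio was 0.31 ± 0.09, with a floored fold of 1.23.

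The UDP-glycosyltransferase, phosphate cotransporter and cytochrome P450 genes with a symbol had ratios from 0.63 to 1.17. Ugt37A3 (CG5999, arm 3R), a UDP-glycosyltransferase, had 1.17 ± 0.14. NaPi-T (CG10207, arm 2R), a sodium-dependent phosphate cotransporter, had 0.81 ± 0.08, and its second probe, which also met the flags, gave 0.71 ± 0.29. The cytochrome P450 genes Cyp4d21 (CG6730, arm 2L) and Cyp6a9 (CG10246, arm 2R) had 0.75 ± 0.16 and 0.63 ± 0.07, and a second qualifying probe of Cyp6a9 gave 0.55 ± 0.11. The rest of these families did not move one way. Of 45 other P450 genes tested with limma, 18 were higher and 16 lower in the null at an adjusted p under 0.05, with a median ratio of -0.02. Of 21 other UDP-glycosyltransferases 5 were higher and 7 lower, with a median of -0.10. In all genes 28.0% were higher and 26.5% lower.

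Cuticle, lysozyme and lectin genes and a testis gene had ratios from 0.34 to 0.59. TwdlB (CG6478, arm 3R), of the Tweedle cuticle proteins, had a ratio of 0.59 ± 0.12, and Cpr50Cb (CG6305, arm 2R), a chitin-binding cuticle protein, had 0.40 ± 0.14. Of 53 other cuticle genes tested, 18 were higher and 16 lower, with a median of -0.00, and of 9 other pickpocket genes 3 were higher and 2 lower, with a median of 0.04. LysX (CG9120, arm 3L), of the lysozyme family, had 0.59 ± 0.11, and lectin-24Db (CG2958, arm 2L), a C-type lectin, had 0.37 ± 0.09. t-Grip84 (CG7716, arm 3L), a testis-specific member of the gamma-tubulin ring proteins, had 0.34 ± 0.05.

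The other 24 genes, or 53.3%, have no name beyond the CG number, against 43.1% of the genes on the array. CG17294 (arm 2L) had net signals of 124.5, 175, 154 and 152 in the null and -0.5, 13, 3 and -0.5 in w1118. Its ratio was 1.91 ± 0.15, with a floored fold of 3.50. Its w1118 mean of 2.92 was the lowest of the 45. CG13795 (arm 2L) had 141.5, 236.5, 137.5 and 135.5 in the null and 12.5, 14, 9.5 and 16 in w1118. Its ratio was 1.69 ± 0.14, with a floored fold of 3.21, and 1.42 ± 0.18 on a second qualifying probe. CG30428 (arm 2R) had 145.25, 198.5, 114.75 and 112.25 in the null and 12.5, 13.5, 6.75 and 5.5 in w1118. Its ratio was 1.63 ± 0.12, with a floored fold of 3.06. All 3 genes were dim in w1118 on every array, and none overlapped.

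CG33509 (arm 2L) had net signals of 116.75, 183.5, 112 and 124 in the null and 7.5, 15.5, 8.25 and 6.75 in w1118. Its ratio was 1.58 ± 0.08, with a floored fold of 2.95. CG17684 (arm 2R) had 106, 192, 108.5 and 106.5 in the null and 16.5, 15, 8.5 and 13.5 in w1118. Its ratio was 1.44 ± 0.08, with a floored fold of 2.72. CG31784 (arm 2L) had 95.5, 139.5, 85 and 93.5 in the null and 0.5, 5.5, 4 and 5 in w1118. Its ratio was 1.44 ± 0.13, with a floored fold of 2.57. These 3 were again without overlap, with the dye swap highest in the null. For 2 of them, other probes did not show a difference of that size. CG17684 had 2 further probes, above background in no null channel, with ratios of -0.00 ± 0.09 and -0.08 ± 0.04. The other probe of CG31784, likewise not above background, gave 0.11 ± 0.03 and was above 0 on all 4 arrays. It is assigned to transcript RA, and the probe shown to transcript RB.

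The genes with the lowest ratios met the flags with little difference in signal. CG7069 (arm 3R) had 24.5, 19.5, 30 and 20.5 in the null and 20.5, 20.5, 28 and 23.5 in w1118, and a ratio of 0.06 ± 0.06. CG17925 had 18, 26.5, 26.5 and 21 in the null and 21.5, 21, 25 and 17 in w1118, and a ratio of 0.08 ± 0.04. In both genes the null and w1118 signals overlapped, and w1118 was the brighter of the net signals on 2 of the 4 arrays for CG7069 and on 1 for CG17925. CG15234 had 24, 19.5, 22.5 and 25 in the null and 11.25, 13, 13.75 and 10.5 in w1118, without overlap. Its ratio was 0.26 ± 0.06, with a floored fold of 1.20. CG32437, CG32440 and CG30486 had 1.38 ± 0.21, 0.63 ± 0.10 and 0.65 ± 0.05, and a second qualifying probe of CG30486 gave 0.58 ± 0.12. The remaining 12 genes (CG34446, CG16957, CG6048, CG32388, CG17290, CG3987, CG4229, CG5327, CG15734, CG31819, CG13157 and CG6788) had ratios from 0.32 to 0.73.

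Most of the 45 genes rested on 1 probe, which held for 33 of them, or 73.3%, against 69.7% of the genes on the array. The 12 genes with more probes had 15 further probes, of which 7 also met the flags in the null and 8 did not, 6 of them above background on no null array. All probes qualified in 6 of these 12 genes. A result from 1 probe has no second measurement of the same gene on these arrays.

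Genes at the edge of the rule are given here as a description, with no test. Of 23 genes well above background in the null on 4 arrays and in w1118 on 1 array, the median ratio was 0.46, with Hsc70-2 at 1.29 ± 0.05, Cyp6g1 at 1.28 ± 0.11, CG13825 (named CG4467 in the table) at 0.95 ± 0.11 and CG15353 at 0.89 ± 0.03. The w1118 flag stood on the dye swap in 14 of them, on the first array in 6, in replicate 2 in 3 and in replicate 3 in 0. Of 52 genes with the null flagged on 3 arrays and w1118 on none, the median ratio was 0.24, with CG30195 at 0.45 ± 0.04, CG31157 at 0.42 ± 0.03, CG3746 at 0.39 ± 0.10 and CG14125 at 0.39 ± 0.06. The missing array was replicate 2 in 50 of the 52. Hsc70-2 and Cyp6g1, outside the rule by 1 w1118 channel, thus had larger ratios than most of the genes inside it.

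To see how such genes behaved in extracts that did not choose them, the same rule was applied to 2 replicates and read in the one left out. Without replicate 1 it chose 123 genes, of which 114 were above background in the null of both arrays of replicate 1, 50 were not above background in either w1118 channel there, and 117 had a ratio above 0, with a median of 0.46. Without replicate 2 it chose 98 genes, of which 48 had the null and 95 lacked w1118 in replicate 2, and 98 had a ratio above 0, with a median of 0.34. Without replicate 3 it chose 46 genes, of which 45 had the null, 46 lacked w1118 and 45 had a ratio above 0 in replicate 3, with a median of 0.68. With the weaker flag the ratios in the left-out replicate were smaller. It chose 107, 63 and 25 genes without replicates 1, 2 and 3, of which 82, 51 and 23 had a ratio above 0 in the one left out, with medians of 0.08, 0.09 and 0.26. The shares of all genes that met these criteria in the left-out replicate are not given. The counts are therefore a description with no background to read them against. They are also open to dye bias, because all arrays but the dye swap had the same dye orientation. In replicate 2 only 1.71% of w1118 spots with a net signal of 20 to 30 were flagged, so few dim genes could have w1118 there.

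The genes were spread over the chromosome arms: 5 on X, 10 on 2L, 10 on 2R, 10 on 3L, 8 on 3R and 0 on chromosome 4, or 11.1%, 22.2%, 22.2%, 22.2%, 17.8% and 0% of the 45. The array's genes fell 15.4%, 17.4%, 19.4%, 19.1%, 23.8% and 0.603% in the same order. In gene order, 8 of the 45 genes (17.8%) formed 4 side-by-side pairs with no gene between. These were Met75Cb with Met75Ca, CG32437 with CG32440 and Trhn with LysX, all on 3L, and CG33509 with ppk13 on 2L. No such count for other sets of genes is given beside it, so no clustering is read from it. The 8 outer neighbours of the pairs were looked at after the pairs were seen. Of these, 4 were lower in the null and 4 not called, where 26.5% of all genes were lower. CG12971 and rgn, both beside the pair of CG32437 and CG32440, had ratios of 0.14 ± 0.19 and 0.08 ± 0.05. CG4306 beside Met75Cb was lower at -0.66 ± 0.07 (limma adjusted p 8.8e-05). The gene term, nearest to Met75Ca with 7 genes between, gave -0.08 ± 0.03 (limma adjusted p 0.17). CG9259, directly beside ppk13, was itself above background only in w1118. Its net signals were 12, 12, 7 and 8 in the null and 75.5, 49, 47.5 and 46.5 in w1118, with a ratio of -0.68 ± 0.04. In that stretch of 2L, 2 genes detected only in the null and 1 detected only in w1118 thus lay in a row.

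The rule did not use the values of the genes that lie beside the 45. Of 76 measured genes nearest to a member of the set on either side and not in it, 36 (47.4%) were higher in the null and 17 (22.4%) lower by limma at an adjusted p under 0.05, against 28.0% and 26.5% of all 10012 genes. Not all of the 76 were directly adjacent: ApepP, counted for CG31784, had 16 genes between. Of the 76, 5 (6.58%) were at least 2-fold higher, against 1.89% of all genes, and the median ratio of the 76 was 0.12. With the 2 nearest genes on each side, 41.3% of 150 were higher and 24.0% lower. Beside the genes detected only in w1118 the split was the other way, with 21.3% of 75 higher and 41.3% lower. These are counts set beside a background, and the difference between them was not tested. Without replicate 3 they fell to 23 higher (30.3%) and 11 lower, where 17.8% of all genes were higher.

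**Figure D3:**
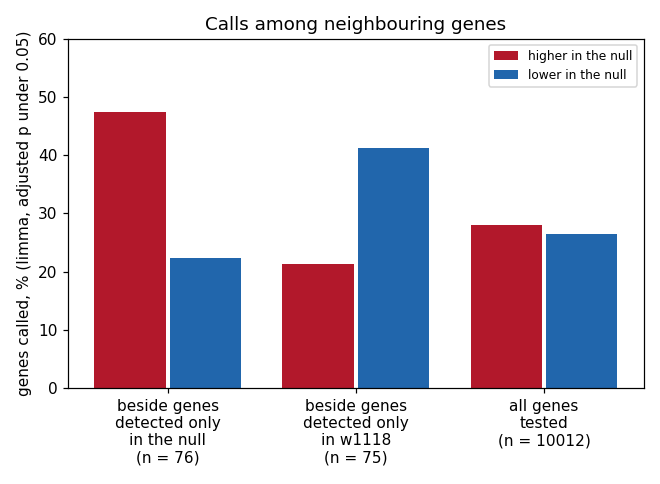
Share of genes called higher (red) or lower (blue) in the null (y axis, %, limma adjusted p under 0.05) for the nearest measured genes beside the genes detected only in the null, beside those detected only in w1118, and for all genes tested. The red bar is the taller one beside the null set (47.4% against 22.4%), the blue one beside the w1118 set (41.3% against 21.3%), and the bars of all genes are nearly level.

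The 5 neighbours that were at least 2-fold higher were picked out after their values were seen. Kr, a zinc finger gap gene that is also used in muscle, was the nearest measured gene to CG30428 on 2R, with 2 genes that were not measured between, and had a ratio of 3.46 ± 0.17 (limma adjusted p 4.8e-07). CG10859 beside CG16957 had 3.39 ± 0.06, and antr beside CG30486, known for its part in sperm storage, had 2.91 ± 0.11. Gbp2, a growth-blocking peptide gene, lay nearest to CG17290 with 7 genes between and had 2.04 ± 0.04. Ugt37A2, of the same family as its neighbour Ugt37A3, had 1.42 ± 0.18. Each was higher in all 3 replicates. At the other end, Naprt beside lectin-24Db had -1.48 ± 0.08. Cpr49Ag, nearest to CG13157 with 4 genes between, had -1.33 ± 0.27, so strongly lower genes were also among these neighbours.

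Neighbours that share the first letters of their symbol with the set's gene were also looked at after the values were seen. Of 7, 6 were higher: Ugt37A2, TwdlL (0.97 ± 0.14), TwdlP (0.80 ± 0.12), Cyp6a20 (0.65 ± 0.05), Cyp6a23 (0.40 ± 0.10) and beat-Vc (0.20 ± 0.12). OtopLa was lower, at -0.27 ± 0.14. Among the other 69 neighbours, 30 (43.5%) were higher. These 69 still hold neighbours with adjoining CG numbers. CG13794 (0.22 ± 0.16) lay beside CG13795, and CG13796 (0.57 ± 0.06) was nearest to it with 1 gene between. CG34445 (0.92 ± 0.04) lay beside CG34446. Where neighbours are near copies, a probe may read both genes, which was not tested.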

How the data were processed

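Spots were read by the authors with Agilent Feature Extraction (version 10.1.1.1, per the file headers). From the deposited files, the raw intensity columns of median spot brightness and median local background were used, with the scanner's flags. Per the file headers, the processed intensity in the same files is already background-corrected and normalized between dyes. The authors' deposited series matrix held log2 ratios that ran w1118 over null on all 4 arrays when set against the processed signals (slope -1.00), with column medians of -0.137, -0.041 (dye swap), 0.071 and 0.128. Centring beyond that of the processed signals is not stated.

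Ratios were computed with limma (version 3.58.1, in R 4.3.3) by normexp with an offset of 50 and loess (within arrays with control and outlier spots at weight 0), turned to null over w1118, and spots of a probe averaged. The 2 arrays of replicate 1 hold the same extracts and were averaged first, giving n = 3. Channel signals were scaled between arrays with Aquantile. A probe was kept where it was well above background in one genotype in at least 2 of 3 replicates. The brightest kept probe stood for a gene, and lmFit and eBayes with Benjamini-Hochberg adjustment tested 10012 genes. The 45 genes have no test, because the flags used the same contrast. For them the brightest qualifying probe is shown.

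On data simulated for the all-gene ratios (10012 genes), 72% of 50 genes changed 1.2-fold and 100% of those changed 1.5-fold were recovered, with 16 false calls. The simulated noise was independent between genes, with few genes changed and no dye or array bias. In the real fit 28.0% of genes were higher and 26.5% lower, so the 16 false calls do not measure its error. RefSeq's table, whose build differs from the array's, served for names, arms and gene order only, so no coordinates are given. The rule, the gene lists and the tests were chosen with earlier results of these data known. All 8 channel values are printed for the 12 highest ratios, which include the 8 brightest genes in the null, and the 4 lowest. Mean ratios are printed for genes with a symbol, a second qualifying probe or a neighbour in the set. The values of 1 gene of the set are not reported here. Planned counts of promoter motifs were not run, as no promoter sequences were used here. With 4 arrays, the number of arrays limits precision.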

Additional observations from a re-analysis of the deposited data

Results flagged for a closer look

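Probes without an annotation ID were used in none of the comparisons above. Of 12136 such probes, 41 (0.338%) were well above background in the null on all 4 arrays and in w1118 on none. The mirrored count was 35 (0.288%). Among the 20026 probes with an annotation ID these were 72 (0.360%) and 49 (0.245%). The shares were close, and the rule largely fixed the direction of the 41, so nothing is read from their number. Among the 41 were the probes for TC214637, at 4.22 ± 0.11 on the log2 scale with mean net signals of 1061 in the null and 9.17 in w1118, and for CO319397, at 3.91 ± 0.12 with 784 and 2.92. At the low end, the probe for CO192761 had 0.09 ± 0.03, with 26.7 in the null and 24.4 in w1118. None of these 3 sequences was given a gene here.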

How the results depend on the processing

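The number of genes depends on the detection rule. It was 17 with the weaker flag, 97 with the null on 3 or more arrays, 68 with 1 w1118 channel allowed, 70 counted as probes, and 46 to 123 with a replicate left out. The median ratio of the 45 genes was 1.81 with an offset of 0, 3.02 from processed signals and from the authors' matrix, 0.63 over all probes of a gene, and 0.65 to 0.72 with a replicate left out. No gene's mean ratio fell below 0 under any of these settings. The choice of the 45 genes by flags on the same arrays largely fixed this direction, so nothing is read from it. On single arrays, ratios of CG7069 and CG17925 were slightly below 0 at the offset used for the sizes above. Without the dye-swap array, 3372 genes were higher and 3226 lower. With replicate 1 taken from its dye swap alone, 1792 genes were higher and 1721 lower, with 10 neighbours lower. The calls over all genes are thus also open to dye bias, which was not tested. With a replicate left out there were 1779 to 3066 genes higher and 1726 to 2912 lower, and among neighbours 23 to 35 higher and 11 to 20 lower. Over all settings 30.3% to 51.3% of neighbours were higher, against 17.8% to 33.7% of all genes. Slide as a random block could not be estimated over 3 replicates. Over 4 arrays, an alternative chosen after seeing the data, it gave 33 neighbours higher and 14 lower. Each ratio is taken within an array that holds both genotypes, so the fit is already paired by replicate.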
